A study of Drosophila melanogaster with 18 samples.

Results

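The comparison described here asked how 2 inbred lines of Drosophila melanogaster differ in the change of ovarian gene expression between warm and cold conditions in flies that had not entered diapause. For each gene the difference between reproductive ovaries at 12 °C and age-control ovaries at 25 °C was taken within the LP line and within the HP line, and the HP change was subtracted from the LP change on the log2 scale. This quantity is called the line difference below: it is positive where the LP change lies above the HP change. The contrast used 12 of the 18 libraries, 3 in each of 4 groups, and 1501 of the 9037 genes tested (16.6%) passed an adjusted p of 0.05, out of 17611 genes in the table.

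HP stands for high plasticity and LP for low plasticity, 2 wild-type inbred genotypes. The 4 groups were HP and LP flies labelled persistently reproductive at 12 °C, and HP and LP flies that were 28 days old at 25 °C. All samples were poly-A RNA of ovaries labelled as stages 1 to 7. The labels give no age for the flies at 12 °C, so temperature and any difference in age or time in the assay cannot be told apart within a line, and each genotype was represented by 1 inbred line. The other 6 libraries were diapausing ovaries of both lines at 12 °C, which did not enter the contrast.

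Reproductive diapause is a reversible arrest of egg production that Drosophila females enter in the cold and in short days, in which egg chambers stop before yolk uptake. Even without arrest, low temperature slows oogenesis, in which germline stem cells give rise to nurse cells and an oocyte wrapped by somatic follicle cells. Nurse cells make large numbers of ribosomes for the egg, and each ovariole lies in a contractile muscle sheath.

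Total counts ran from 17216067 to 21343992 per library in the contrast. Germline transcripts were abundant in every library: vas, an RNA helicase of the germline, lay between 238 and 300.4 CPM (TMM-scaled counts relative to library size), and the maternal mRNAs nanos and osk were at 139.7 to 304 and 271 to 506 CPM (osk was chosen after its values were seen). Chorion genes, which follicle cells express in the last stages of oogenesis, took 0.353 to 0.665% of counts in HP at 25 °C, 0.653 to 0.812% in LP at 25 °C, 0.00297 to 0.0604% in HP at 12 °C and 0.0331 to 0.190% in LP at 12 °C, although the tissue label ends at stage 7. Vitelline membrane genes took 0.297 to 0.464% and 0.755 to 1.12% of counts in the HP and LP age controls, and 0.210 to 0.271% and 0.484 to 0.643% at 12 °C. Late egg-chamber mRNA therefore moved with the groups, and its part in the results below was not tested. In such bulk samples, fewer cells of a type and less RNA per cell cannot be told apart.

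The cold change itself was broad and largely shared. In HP 5900 genes differed between 12 °C and 25 °C (65.3% of those tested), with 2908 higher and 2992 lower at 12 °C. In LP 6108 genes differed (67.6%), with 3063 higher and 3045 lower. Across the 9037 genes Pearson's r between the HP and the LP change was 0.594, a description over genes, which are not independent replicates. Of 4838 genes called in both lines, 169 changed in opposite directions.

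**Figure D1:**
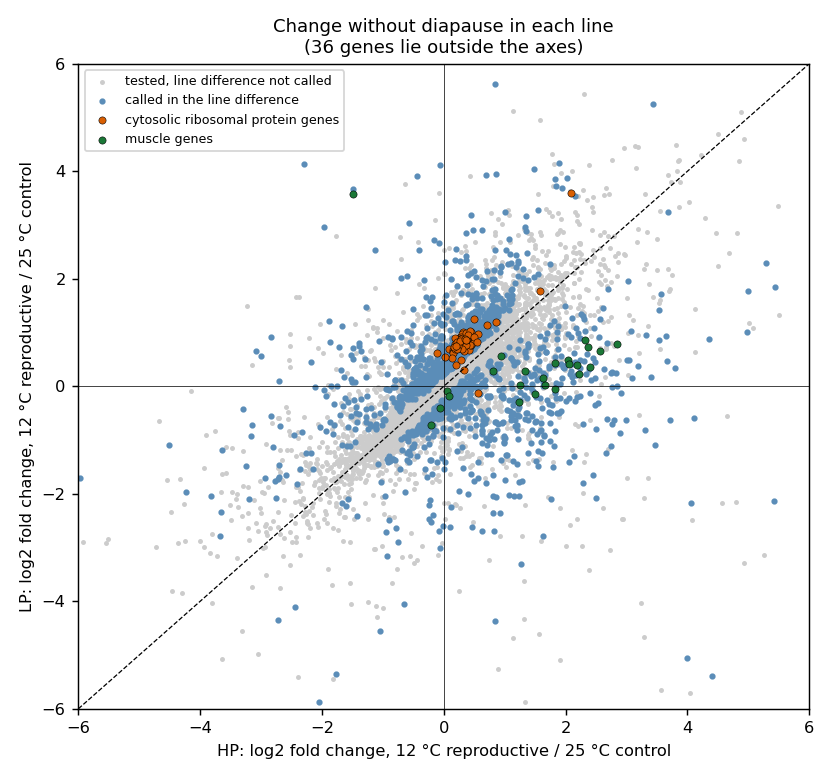
Change from 25 °C to 12 °C in HP (x axis) and in LP (y axis), log2, 1 point per gene tested; coloured points are genes called in the line difference and 36 genes lie outside the axes. Most genes lie near the line of equal change, and the 1501 called genes lie away from it on either side.

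Among the 1501 genes with a line difference, 876 had the LP change above the HP change (9.69% of all genes tested) and 625 below it (6.92%). The split depended on the scaling: with libraries scaled by total counts the numbers were 641 and 907, so that 41.4% rather than 58.4% were higher. The lower side held the larger differences, with 317 genes past 2-fold against 197 on the higher side, and 148 past 4-fold against 58. The median over all genes tested was 0.03 and the median size of a difference was 0.20.

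The form of the difference varied. A rise in both lines that was larger in LP was the most frequent class, with 400 of the 1501 genes (26.6%). A further 216 genes rose in LP alone by the test, 204 in HP alone, 132 fell in LP alone and 111 in HP alone, classes that rest on passing the threshold in 1 line. Genes that rose in HP and fell in LP numbered 104, and 65 fell in HP and rose in LP. Of the rest, 94 rose more in HP, 84 fell more in HP, 84 fell more in LP and 7 changed in neither line.

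Read between the lines within each condition, more of the same 1501 genes differed at 25 °C alone than at 12 °C alone. These classes rest on passing the threshold in each condition. LP and HP age controls differed at 3782 of all genes tested (41.9%), and the 12 °C reproductive ovaries at 3174 (35.1%). Of the 1501 genes, 702 (46.8%) differed between the lines at 25 °C alone, 355 (23.7%) at 12 °C alone, 274 (18.3%) in both states with the same sign, 145 (9.66%) in both with opposite signs and 25 (1.67%) in neither. The median size of the LP to HP difference over the 1501 genes was 0.50 at 25 °C and 0.28 at 12 °C on the log2 scale, against 0.23 and 0.21 over all genes tested. The line difference equals the 12 °C value minus the 25 °C value. Larger medians among genes called by it are therefore partly built into the selection.

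**Figure D2:**
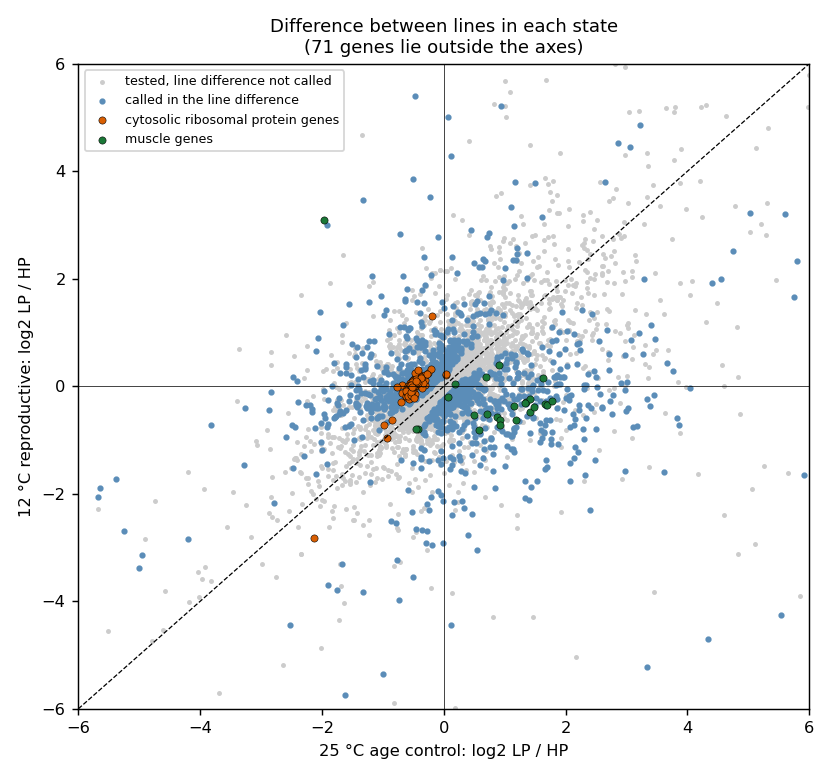
Difference between LP and HP, log2, in the 25 °C age controls (x axis) and in the 12 °C reproductive ovaries (y axis), 1 point per gene tested; coloured points are genes called in the line difference and 71 genes lie outside the axes. Many called genes are spread along the x axis and lie near 0 on the y axis. The 702 genes that differed at 25 °C alone did not pass at 12 °C, which does not place each of them near 0 there.

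The genes of the cytosolic ribosome formed the most uniform group. Of 84 tested ribosomal protein genes (86 found), 66 had a line difference, and in each of the 66 the LP rise in the cold was the larger; 0 lay on the lower side, against 9.69% and 6.92% of all genes. The median line difference was 0.51 against 0.03 over all genes, made of a median rise of 0.32 in HP and of 0.82 in LP. Of the 66, 57 rose in both lines and 9 in LP alone.

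Ribosomal protein mRNA took 14.5, 17.2 and 13.9% of all counts in the HP age controls and 12.3, 11.5 and 9.99% in the LP age controls. At 12 °C it took 17.6, 17.8 and 17.6% in HP and 16.9, 17.7 and 17.7% in LP. The lines were thus apart at 25 °C without overlap, LP lower, while at 12 °C their ranges met. By gene, 81 of the 84 were lower in LP at 25 °C (median -0.50), and at 12 °C 8 were higher and 6 lower (median 0.03).

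RpL5, a large-subunit protein that binds 5S RNA, was at 3180, 3823 and 3149 CPM in HP at 25 °C, 3077, 3138 and 3180 CPM in HP at 12 °C, 2785, 2522 and 2261 CPM in LP at 25 °C and 3827, 3807 and 3946 CPM in LP at 12 °C. The HP libraries of both temperatures overlapped, while every LP library at 12 °C stood above every LP library at 25 °C. Its line difference was 0.73 (SE 0.11, adjusted p = 8.1e-05, edgeR quasi-likelihood test with Benjamini-Hochberg adjustment over 9037 genes, as for each adjusted p below).

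RpS15Aa of the small subunit rose in both lines, from 1268, 1574 and 1290.0 CPM to 1667, 1723 and 1695 CPM in HP, and from 1116, 1011 and 935 CPM to 1951, 2034 and 2044 CPM in LP. The groups did not overlap within either line, and the LP rise was the larger by 0.68 (SE 0.10, adjusted p = 0.00011). RpL3 and RpS9, chosen after their values were seen, had line differences of 0.62 and 0.64 (adjusted p = 0.00022 and 0.00026). RpS14b had one of 0.76, but lies beside the near-identical RpS14a and its reads may be divided between them.

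The second HP age-control library stood high in ribosomal protein share, at 17.2%, and without it the list's median fell to 0.39 with 61 genes called. Over the 12 fits that each left out 1 library, 61 to 76 genes were called higher and 0 lower, and 60 of the 66 were called in every fit. With total-count scaling the number was 63 and the median 0.43. Against a 1.5-fold difference 0 of the 84 passed, a result that does not place each gene's shift below 1.5-fold.

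Other parts of the translation machinery moved the same way to a smaller extent. Of 20 genes of ribosome biogenesis 10 had a larger LP rise and 0 a smaller one (median 0.25), and all 10 rose in both lines. That is 50% called, against 9.69% higher and 6.92% lower among all genes. Polr1A, the largest subunit of RNA polymerase I, which transcribes ribosomal RNA, went from 297, 282 and 288 CPM to 375, 403 and 407 CPM in HP and from 178, 150.2 and 142 CPM to 361, 329 and 332.4 CPM in LP. Both lines rose without overlap and LP started lower, and the line difference was 0.67 (SE 0.10, adjusted p = 7.3e-05).

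Polr1B, the second subunit of that polymerase, differed by 0.60 (adjusted p = 0.00012) and the nucleolar GTPase Ns2 by 0.60 (adjusted p = 6.2e-05). The count of biogenesis genes called was sensitive: 6 with total-count scaling, 6 without the third HP reproductive library and 6 without the second LP age-control library. Among 43 translation factors 16 had a higher LP change and 1 a lower one (median 0.18), or 39.5% called against 16.6% of all genes. The initiation factor subunits eIF3e and eIF3l differed by 0.45 and 0.46 (adjusted p = 0.00027 and 0.0003). Of the 17 called genes, 14 differed between the lines at 25 °C alone.

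The exception was eEF1alpha2, a second gene for elongation factor 1 alpha expressed at a low level here. It rose in HP from 1.00, 0.827 and 1.17 CPM to 2.45, 2.37 and 3.73 CPM and fell in LP from 4.60, 6.60 and 5.37 CPM to 3.29, 3.73 and 3.40 CPM. Its line difference was -2.17 (SE 0.34, adjusted p = 0.00016).

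Aminoacyl-tRNA synthetases, which charge tRNAs, had 6 higher and 0 lower of 33 (median 0.11). That share of 18.2% called is near the 16.6% of all genes, and the count became 2 higher and 1 lower with total-count scaling. Mitochondrial ribosomal proteins had 6 higher and 0 lower of 72 (8.33%), or 2 higher with total-count scaling. The nuclear genes of oxidative phosphorylation had 4 higher and 0 lower of 65 (6.15%), both shares below the 16.6% called among all genes. Yet 58 of the 72 and 60 of the 65 had positive line differences, with medians of 0.15 and 0.17 against 0.03 over all genes. With total-count scaling these medians were 0.07 and 0.09, against -0.04 over all genes. ND-15 of complex I, the oxidative phosphorylation gene with the smallest adjusted p, differed by 0.69 (adjusted p = 0.00037). It shares exon sequence with an unnamed gene on the same strand and with Pus10 on the opposite strand, whose reads may be mixed with its own. ATPsynbeta, the catalytic subunit of ATP synthase, differed by 0.41 (adjusted p = 0.0044).

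**Figure D3:**
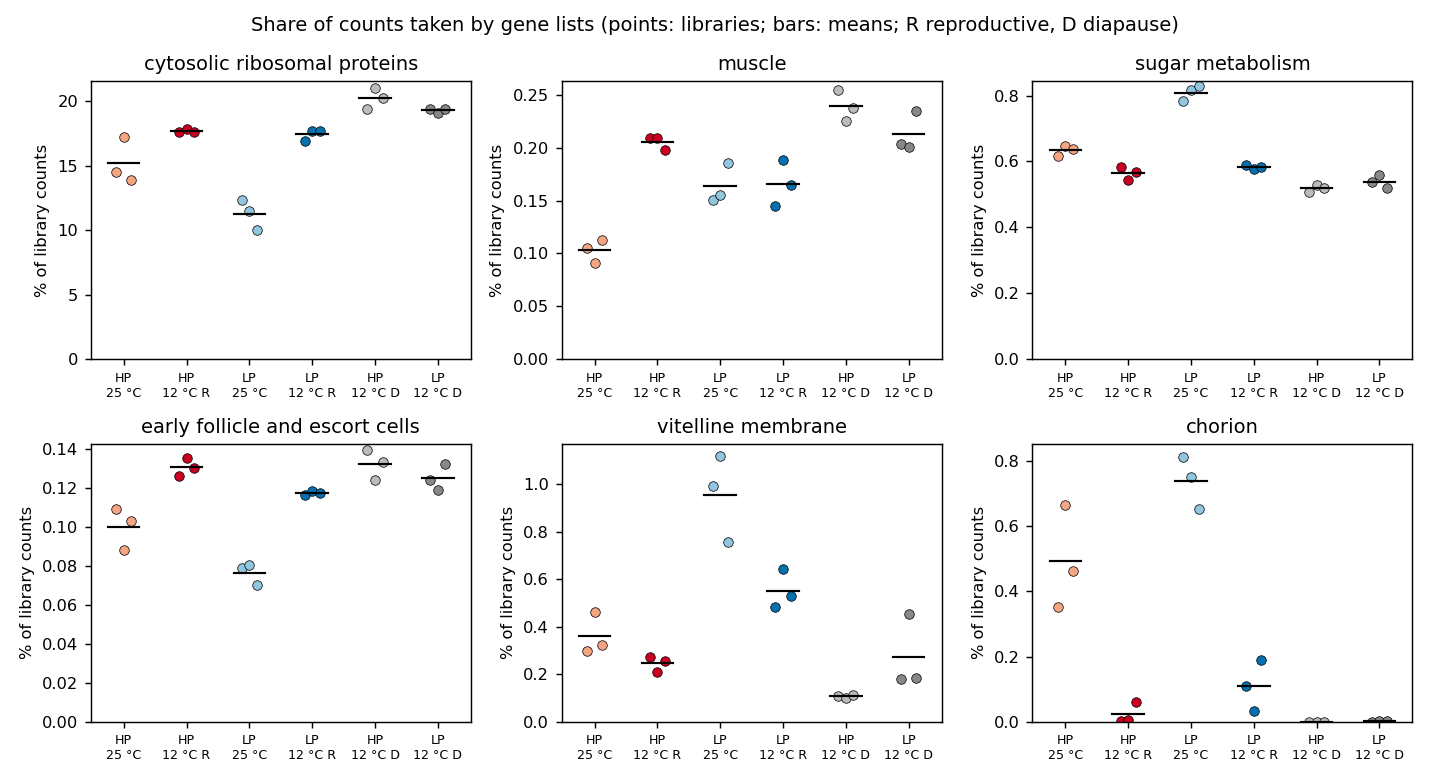
Share of all counts (%) taken by the genes of 6 lists in each of the 18 libraries, by line and condition; points are libraries. Ribosomal protein mRNA is lowest in the 3 LP age controls (9.99 to 12.3%), and muscle mRNA is lowest in the 3 HP age controls (0.0907 to 0.113%).

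Muscle genes moved the other way. Of 24 tested members of the muscle list (27 found) 18 had an LP change below the HP change and 1 an LP change above it, against 6.92% and 9.69% of all genes. The median line difference was -1.50, made of a median change of 1.65 in HP and 0.29 in LP. Of the 18, 11 rose in HP alone and 7 rose in both lines, more in HP.

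Muscle mRNA took 0.105, 0.0907 and 0.113% of counts in HP at 25 °C and 0.209, 0.209 and 0.198% in HP at 12 °C. In LP it took 0.151, 0.155 and 0.186% at 25 °C and 0.145, 0.188 and 0.165% at 12 °C. The LP ranges overlapped and the HP ranges did not. The lines again stood apart at 25 °C, where 20 of 24 genes were higher in LP and 2 lower. At 12 °C their order was reversed, also without overlap, and 1 gene was higher in LP and 8 lower (median -0.36).

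Mlc2, a myosin light chain, was at 24.0, 20.3 and 28.3 CPM in HP at 25 °C, 179.6, 179 and 160.0 CPM in HP at 12 °C, 66.2, 71.1 and 97.4 CPM in LP at 25 °C and 107, 164 and 136 CPM in LP at 12 °C. It rose in both lines without overlap, and the line difference was -2.04 (SE 0.24, adjusted p = 4.8e-05). Mlc1, the other myosin light chain of the list's leading genes, differed by -1.99 (SE 0.28, adjusted p = 0.00012), and wupA, troponin I, by -1.64 (SE 0.23, adjusted p = 0.00016).

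Genes of the contractile filaments gave similar values. Mhc, the muscle myosin heavy chain, and Act57B, a muscle actin, both chosen after their values were seen, differed by -1.80 and -1.91 (adjusted p = 0.0012 and 0.00039). Not called were, among others, the tropomyosin gene Tm1, which also acts in the germline and had group means of 461 to 521 CPM (-0.14, adjusted p = 0.17), and the transcription factor Mef2 (-0.27, adjusted p = 0.17), both picked after their values were seen.

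The member on the higher side was TpnC41C, a troponin C, with group means of 0.076 to 0.96 CPM. In the 12 fits that left out a library 17 or 18 muscle genes were called lower, and 13 passed against a 1.5-fold difference. Whether the libraries held more sheath muscle or more muscle RNA per cell cannot be told apart.

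Markers of the other cell types that a dissected ovary could carry were mixed. Of 10 tested haemocyte and basement membrane genes (16 found) 3 were higher and 3 lower (60% called, against 16.6% of all genes). Pxn, peroxidasin, went from 6.72, 3.12 and 8.30 CPM to 17.7, 19.2 and 18.8 CPM in HP, while its LP libraries of both temperatures overlapped at 9.41 to 23.4 CPM, with a line difference of -2.03 (adjusted p = 0.0016). SPARC, a collagen-binding protein, differed by 0.47 (adjusted p = 0.0087). The list's share of counts was 0.114 to 0.137% and 0.211 to 0.235% in HP at 25 °C and 12 °C and 0.0742 to 0.0866% and 0.167 to 0.178% in LP.

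PPO2, a prophenoloxidase of crystal cells, was detected mainly in HP. It was at 10.8, 13.0 and 8.91 CPM in HP at 25 °C and 1.96, 2.57 and 2.13 CPM in HP at 12 °C, and in LP at 0 in each of the 3 age controls and 0.06, 0.153 and 0.103 CPM at 12 °C. HP fell in the cold (adjusted p = 2e-06), and no fold is given for LP, where a count of 0 allows levels of up to 0.124 to 0.138 CPM by library (3 counts, counting error only).

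Fat body and nerve markers were low. Of 11 fat body and 14 neuronal genes 5 and 7 passed the filter on low counts. Fat body genes took at most 0.0101% of counts and neuronal genes at most 0.00275% in any library of the contrast, with 0 of 7 neuronal genes called by edgeR or DESeq2 (1 at an unadjusted p under 0.05) and 1 of 5 fat body genes, NLaz, described below. NLaz lay on the lower side, while 4 of the 5 fat body genes had positive line differences (list median 1.41). The fat body share varied between the LP libraries at 12 °C, from 0.000584 to 0.00855% of counts. Of 4 tested genes of the oviduct and sperm stores 1 was called, vvl (-2.12, adjusted p = 0.026), at group means of at most 1.14 CPM, a call lost in 4 of the 12 fits without a library. The part of these cell types in the other results was not tested.

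Opposite changes were ranked among named genes, without unnamed or non-coding ones, with at least 5 CPM in the higher group of each line. The 8 clearest by the smaller of their HP and LP changes were Arc1, Vmat, Drip, NKCC, SP1173, pyx, Obp99a and Hesr. Against the 169 opposite genes in all, each of the 8 kept its call in all 12 fits that left out a library. The first 6 rose in HP and fell in LP, and the last pair did the reverse.

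Arc1 (2R, 14357927 to 14360297, minus strand, in the coordinates of the count table, as for the positions below) encodes a capsid-forming protein derived from a retrotransposon Gag. It was at 12.0, 12.4 and 11.7 CPM in HP at 25 °C, 95.1, 79.9 and 92.05 CPM in HP at 12 °C, 124, 154 and 99.2 CPM in LP at 25 °C and 69.1, 69.8 and 69.0 CPM in LP at 12 °C. The HP age controls stood far below every other library. The line difference was -3.75 (SE 0.17, adjusted p = 8.8e-11), from a rise of 2.88 in HP and a fall by 0.86 in LP.

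Vmat (2R, 13513132 to 13534251, minus strand), the vesicular monoamine transporter, was at 1.19, 0.781 and 4.80 CPM in HP at 25 °C, 6.75, 9.01 and 7.28 CPM in HP at 12 °C, 18.7, 21.4 and 18.2 CPM in LP at 25 °C and 3.48, 4.70 and 5.36 CPM in LP at 12 °C. The groups did not overlap within either line, and the third HP age control stood above the other two. For Vmat the line difference was -3.87 (SE 0.59, adjusted p = 0.00037). An uncharacterised gene on the opposite strand overlaps its exons.

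Drip (2R, 11411203 to 11429645, minus strand), an aquaporin water channel, went from 4.77, 5.51 and 12.5 CPM to 23.7, 19.4 and 18.2 CPM in HP and from 23.9, 21.3 and 25.8 CPM to 6.65, 13.4 and 13.7 CPM in LP. Neither pair of groups overlapped. Its line difference was -2.49 (SE 0.42, adjusted p = 0.00085).

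NKCC (3R, 5489505 to 5502702, minus strand), a sodium, potassium and chloride cotransporter, went from 14.6, 10.9 and 15.2 CPM to 26.4, 27.3 and 24.8 CPM in HP and from 10.1, 10.6 and 11.04 CPM to 2.64, 5.26 and 4.33 CPM in LP. The lines overlapped at 25 °C and stood far apart at 12 °C, where LP was lower by a log2 difference of -2.67 (adjusted p = 9.6e-10). This gave a line difference of -2.31 (SE 0.24, adjusted p = 3.2e-06).

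SP1173 (3L, 6689327 to 6703521, minus strand) rose from 25.2, 15.8 and 28.3 CPM to 45.8, 44.7 and 46.8 CPM in HP and fell from 69.2, 90.1 and 88.8 CPM to 31.6, 43.9 and 45.9 CPM in LP, a line difference of -2.01 (SE 0.24, adjusted p = 3.8e-05). At 12 °C the ranges of the lines met. pyx (3L, 217932 to 223069, minus strand), a heat-activated cation channel of the TRPA family, had a line difference of -2.04 (SE 0.25, adjusted p = 1.1e-05) and overlaps 2 genes on the opposite strand.

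Obp99a (3R, 29671657 to 29672334, plus strand), an odorant-binding protein, fell from 9.10, 6.38 and 7.18 CPM to 2.29, 2.42 and 2.37 CPM in HP and rose from 3.08, 3.67 and 2.94 CPM to 6.41, 6.99 and 7.63 CPM in LP. The order of the lines reversed between the temperatures without overlap in either. Its line difference was 2.80 (SE 0.26, adjusted p = 5.6e-07).

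Hesr (X, 18204403 to 18205144, minus strand), a gene related to the Hairy and Enhancer of split transcription factors, fell from 6.05, 3.81 and 8.39 CPM to 0.708, 0.63 and 1.24 CPM in HP and rose from 6.63, 4.77 and 4.22 CPM to 9.65, 9.80 and 9.84 CPM in LP. The lines overlapped at 25 °C and not at 12 °C. The line difference was 3.75 (SE 0.38, adjusted p = 1.2e-06), and its exons overlap Frq2 on the opposite strand.

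**Figure D4:**
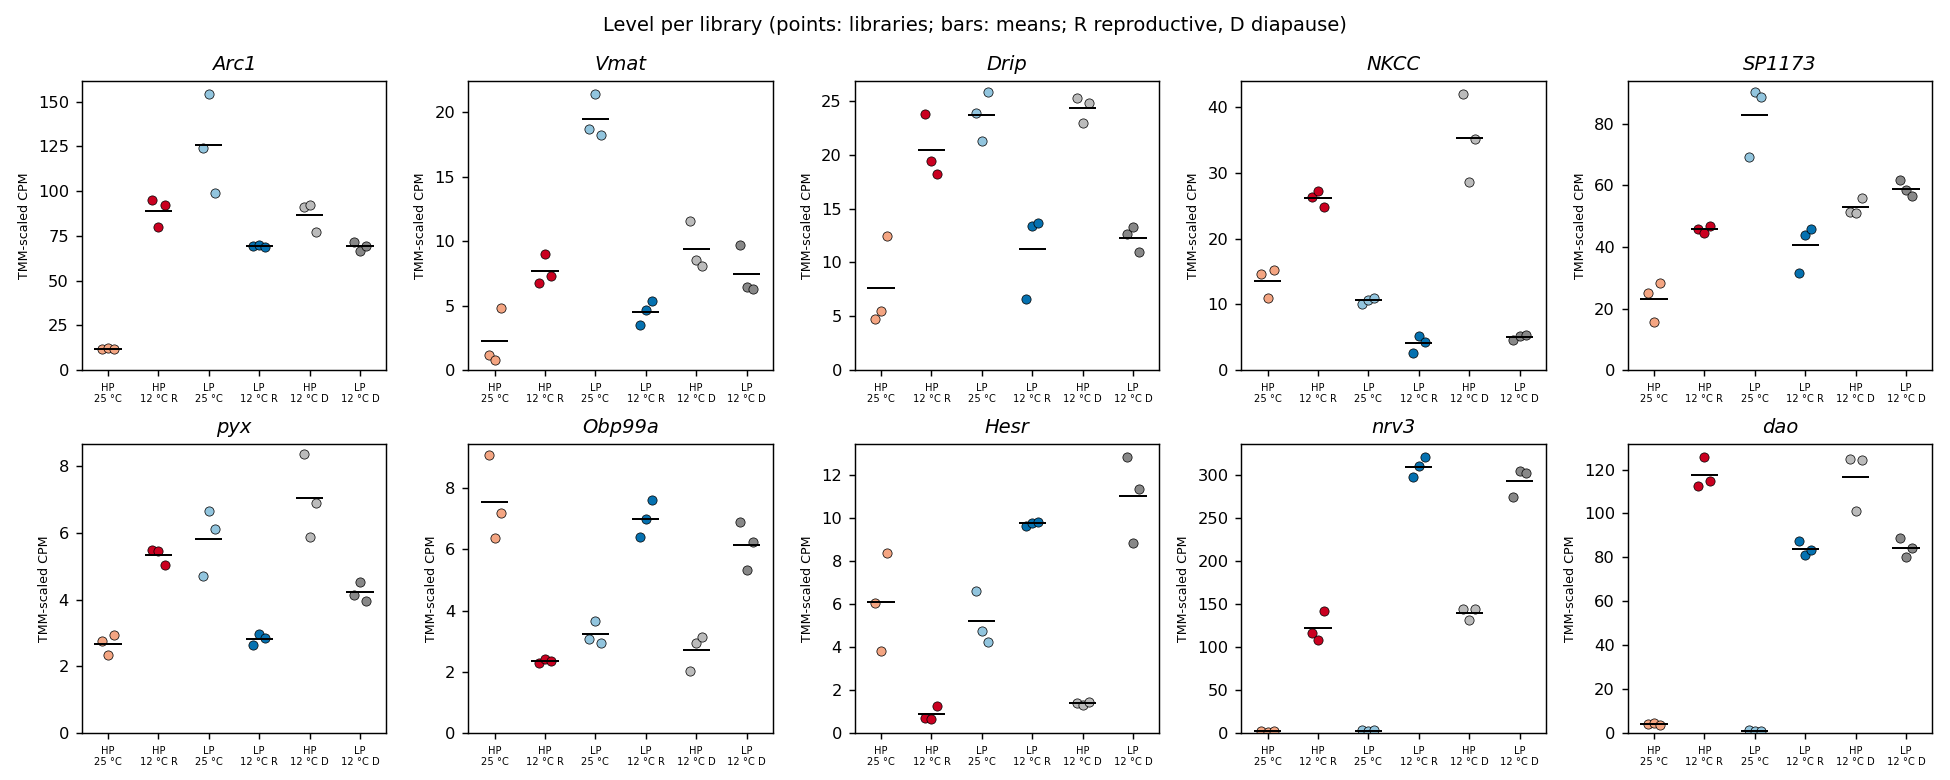
TMM-scaled CPM in every library for the 8 genes with opposite changes and for nrv3 and dao; points are libraries and bars are means of 3. Arc1, Vmat, Drip and SP1173 differ between the lines mainly at 25 °C, and NKCC and Hesr at 12 °C. The diapause libraries lie near the 12 °C reproductive libraries of their line in, for example, Arc1, Drip, NKCC, Obp99a, Hesr and dao.

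Beyond these, the called genes with the most negative line differences included several secreted and membrane proteins. Ance, a peptidase related to angiotensin-converting enzyme, went from 9.15, 6.11 and 8.49 CPM to 12.8, 14.6 and 14.2 CPM in HP and from 10.3, 9.85 and 11.2 CPM to 1.86, 1.43 and 2.83 CPM in LP. It rose in HP and fell in LP without overlap, a line difference of -3.17 (SE 0.28, adjusted p = 3.1e-07). NLaz, a lipocalin, overlapped between the temperatures in HP at 6.53 to 10.2 CPM and fell in LP from 9.95, 13.0 and 10.2 CPM to 0.839, 2.19 and 2.32 CPM (-2.59, SE 0.33, adjusted p = 1.6e-05).

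Tsf1, the iron-binding transferrin, rose in HP from 13.3, 11.03 and 9.61 CPM to 76.8, 77.5 and 71.9 CPM, and its LP libraries lay at 2.88 to 8.76 CPM at both temperatures. Its line difference was -2.50 (SE 0.59, adjusted p = 0.011). abd-A, a Hox gene of the abdomen, and the tetraspanin Tsp42Ed rose in HP and fell in LP, with line differences of -2.65 (adjusted p = 3.4e-06) and -2.41 (adjusted p = 7.2e-07).

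EbpIII differed by -3.29 (adjusted p = 0.002), with 1 HP library at 12 °C at 14.3 CPM and the other two at 3.00 and 3.87 CPM. The matrix protein tenectin, tnc, differed by -2.71 (adjusted p = 0.0054), a value that became -4.08 without the third HP age control, in which tnc was at 1.12 CPM against 0.286 and 0.092 CPM in the other two.

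On the positive side, nrm, an immunoglobulin-type adhesion protein, fell in HP from 54.0, 42.9 and 50.7 CPM to 13.9, 14.96 and 16.1 CPM and rose in LP from 6.31, 6.65 and 7.15 CPM to 9.05, 12.9 and 11.3 CPM. The lines were far apart at 25 °C and closer at 12 °C, and the line difference was 2.44 (SE 0.19, adjusted p = 9.1e-08). tut, a partner of Bam in the germline of the testis, fell in HP from 6.20, 6.43 and 4.76 CPM to 0.653, 0.533 and 1.01 CPM, and rose in LP from 3.82, 3.39 and 3.31 CPM to 5.63, 5.10 and 4.74 CPM (3.55, SE 0.35, adjusted p = 1.1e-06).

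Sox102F, a transcription factor of the Sox family, fell in HP and rose in LP (2.02, adjusted p = 5.4e-05). Acsx4, an acyl-CoA synthetase, and scpr-C rose in both lines and more in LP, by 2.02 and 1.85 (adjusted p = 5.1e-06 and 0.0012). Ilp8, a relaxin-like peptide known from larval growth control, fell in both lines and less in LP (2.27, adjusted p = 0.021), a call that 3 of the 12 fits without a library did not make. The call of E(spl)m3-HLH, a target of Notch signalling (1.85, adjusted p = 0.044), was lost in 9.

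A large positive difference was that of Cp19, a chorion protein of late egg chambers. Its libraries were at 642, 522 and 249 CPM in HP at 25 °C, 0.926, 2.13 and 2.19 CPM in HP at 12 °C, 239, 517 and 726 CPM in LP at 25 °C and 48.0, 10.6 and 110.4 CPM in LP at 12 °C. Both lines fell without overlap, and LP fell less, by 4.93 (SE 1.13, adjusted p = 0.01).

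The 12 chorion genes had a median line difference of 2.24, but their libraries varied widely and Cp19 alone was called. DESeq2 called 3. Of 12 vitelline membrane genes and of 4 yolk genes 0 were called by edgeR or DESeq2, with 1 and 0 at an unadjusted p under 0.05. Yp1, a yolk protein, was at 396 to 642 CPM and 484 to 561 CPM in HP and 475 to 658 CPM and 723 to 942 CPM in LP at 25 °C and 12 °C, with a line difference of 0.38 (SE 0.28, adjusted p = 0.4).

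The cold rise of nrv3 and dao was shared in direction and differed in size. nrv3, a beta subunit of the sodium and potassium pump, was at 2.00, 1.52 and 1.86 CPM in HP and 2.95, 1.88 and 2.98 CPM in LP at 25 °C, and at 116, 108 and 142 CPM in HP and 297, 309.9 and 320.3 CPM in LP at 12 °C. Every 12 °C library of LP stood above every one of HP. The rise was 6.08 in HP and 6.88 in LP, and the line difference of 0.80 (SE 0.22, adjusted p = 0.015) was lost in 1 of the 12 fits without a library.

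dao rose from 4.05, 4.50 and 3.68 CPM to 113, 126 and 114.8 CPM in HP and from 1.29, 0.688 and 0.744 CPM to 87.5, 80.8 and 83.5 CPM in LP. LP was the lower line at both temperatures without overlap, and its rise in log2 units was the larger by 1.68 (SE 0.21, adjusted p = 1.1e-05). Of 8 tested genes of the cold and desiccation list 4 were higher and 1 lower (62.5% called, against 16.6% of all genes). klu, a zinc finger factor, differed by 1.66 (adjusted p = 1.5e-05) and Gs1, a glutamine synthetase, by 0.72 (adjusted p = 0.00051).

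Other genes often studied in cold responses did not pass. The line difference was 0.06 for the desaturase Desat1 (adjusted p = 0.65), -0.07 for the chaperone Hsp83 (adjusted p = 0.63) and -0.03 for the small heat shock protein Hsp26 (adjusted p = 0.96), which was at 762 to 960.3 CPM at 25 °C and 187 to 264 CPM at 12 °C. smp-30 was at most at 1.19 CPM in any library of the contrast (0.67, adjusted p = 0.71). Of 24 heat shock protein genes 2 were higher and 1 lower (12.5% called, against 16.6% of all genes). The lower one, Hsc70-2, had group means of 0.763 to 2.40 CPM and differed by -2.57 (adjusted p = 0.0086), a value that became -1.46 without the second LP age control, at 4.90 CPM. The mitochondrial Hsc70-5 differed by 0.27 (adjusted p = 0.0096), and the call of Trap1 (0.25, adjusted p = 0.048) was lost in 8 of the 12 fits without a library.

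Ion transport genes were divided. Of 21 tested 4 were higher and 4 lower (38.1% called, against 16.6% of all genes), with NKCC and nrv3 among them. Ork1, a potassium leak channel, rose in HP from 148, 137 and 142 CPM to 217.8, 223 and 208 CPM and stayed within 138 to 164 CPM in all LP libraries (-0.61, SE 0.08, adjusted p = 4.1e-05). Nhe3, a sodium and proton exchanger, fell in HP and rose in LP (0.45, adjusted p = 0.00024).

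In sugar metabolism 10 were lower and 2 higher of 28 (42.9% called, against 6.92% lower and 9.69% higher among all genes), with a median of -0.15. The list took 0.616 to 0.646% of counts in HP and 0.783 to 0.828% in LP at 25 °C, and 0.545 to 0.584% and 0.577 to 0.589% at 12 °C. LP stood above HP at 25 °C without overlap, and the ranges met at 12 °C.

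Pfk, phosphofructokinase, was at 106, 115.3 and 108 CPM in HP at 25 °C, 119, 109.9 and 119 CPM in HP at 12 °C, 125, 133 and 133 CPM in LP at 25 °C and 92.6, 92.7 and 97.3 CPM in LP at 12 °C. LP fell without overlap and the HP groups overlapped (-0.55, SE 0.08, adjusted p = 7.5e-05). PyK, pyruvate kinase, rose in HP and fell in LP (-0.43, adjusted p = 0.002). Zw, glucose-6-phosphate dehydrogenase of the pentose phosphate route, rose in both lines and more in LP (0.86, adjusted p = 6.8e-05), and 7 to 10 members were called lower in the fits without a library.

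Of 21 tested genes of early follicle and escort cells 7 had a higher LP change and 0 a lower one (33.3%, against 9.69% and 6.92% of all genes), with a median of 0.42, and without the first LP age-control library 11 were called. eya, a phosphatase and cofactor that marks early follicle cells, went from 59.3, 55.4 and 49.7 CPM to 71.2, 84.6 and 76.2 CPM in HP and from 27.5, 23.4 and 17.9 CPM to 55.8, 63.7 and 55.5 CPM in LP. Both lines rose without overlap and LP lay lower at both temperatures (0.85, SE 0.17, adjusted p = 0.0022).

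kek1, a membrane inhibitor of EGF receptor signalling, and cas, a zinc finger factor of early follicle cells, differed by 1.22 and 1.41 (adjusted p = 0.00097 and 0.00051). At 25 °C both were lower in LP, by -1.42 and -1.40, and at 12 °C the line values were -0.21 and 0.01 (adjusted p = 0.3 and 0.97). The list took 0.0878 to 0.109% of counts in HP and 0.0699 to 0.0802% in LP at 25 °C, and 0.126 to 0.135% and 0.116 to 0.118% at 12 °C.

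In the germline, bam, which starts differentiation of stem cell daughters, fell in HP from 47.8, 43.4 and 57.7 CPM to 29.3, 23.5 and 29.7 CPM, and was at 53.3, 52.8 and 59.8 CPM and 46.1, 50.8 and 45.9 CPM in LP, where the change did not pass (adjusted p = 0.078). The line difference was 0.64 (SE 0.15, adjusted p = 0.0063). Dad, an inhibitory Smad induced by Dpp signalling, fell in HP and rose in LP (0.81, adjusted p = 0.00033). vas rose slightly in LP and fell slightly in HP (0.38, adjusted p = 0.0003), although reads of solo, which shares its exons, cannot be separated. Of 23 stem cell regulators 4 were higher and 0 lower, a share of 17.4% that is near the 16.6% of all genes.

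Meiotic genes gave 2 higher and 1 lower of 19, a share of 15.8% that is near the 16.6% of all genes. vilya, a protein of meiotic crossover sites, rose from 4.39, 5.33 and 4.15 CPM to 18.8, 19.95 and 23.2 CPM in HP and from 1.80, 1.51 and 1.45 CPM to 18.5, 21.0 and 16.1 CPM in LP (1.39, SE 0.19, adjusted p = 4.4e-05). LP was lower at 25 °C without overlap and met HP at 12 °C. c(3)G, of the synaptonemal complex, rose in both lines and more in LP, by 0.65 (adjusted p = 6.6e-06).

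The piRNA pathway, which silences transposons in the ovary, was called in both directions, with 10 higher and 4 lower of 27 (51.9%, against 9.69% and 6.92% of all genes; median 0.10). With total-count scaling the counts were 6 and 5, and 6 were higher without the third HP reproductive or without the first LP reproductive library. BoYb, a Tudor-domain protein, fell from 47.0, 47.6 and 45.6 CPM to 17.1, 16.9 and 17.8 CPM in HP and from 55.0, 55.0 and 59.9 CPM to 42.7, 45.3 and 41.6 CPM in LP (1.05, SE 0.12, adjusted p = 4.2e-06). cuff and nxf2, of piRNA cluster transcription and of nuclear silencing, rose in HP and fell in LP (-1.07 and -0.58, adjusted p = 5.2e-05 and 9.9e-05).

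Detoxification genes were called at 27.5%, against 16.6% of all genes, with 14 higher and 14 lower of 102. Cyp6a23, a cytochrome P450, was at 6.44 to 7.39 CPM in HP and 54.2 to 57.7 CPM in LP at 25 °C, and at 1.79 to 2.72 CPM and 45.0 to 50.2 CPM at 12 °C (1.40, SE 0.17, adjusted p = 1e-05). The lines were apart at both temperatures, by 3.06 at 25 °C and 4.45 at 12 °C on the log2 scale. Cyp4e2 fell in LP from 71.6, 75.9 and 76.5 CPM to 43.1, 40.8 and 45.2 CPM and its HP change did not pass (-0.89, SE 0.08, adjusted p = 4.7e-07). In immunity 3 were higher and 2 lower of 21 (23.8% called), among them the antimicrobial peptide gene Dro (-3.51, adjusted p = 2e-05) and the recognition protein GNBP1 (1.09, adjusted p = 0.00037).

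Cell cycle genes changed much in the cold, and their share called in the line difference lay below the 16.6% of all genes. Of 55 mitotic genes 51 fell in HP and 50 in LP, while 2 were higher and 2 lower in the line difference (7.27%). Of 35 replication genes 34 fell in HP and 33 in LP, and 1 (2.86%), Psf1, was called (-0.62, adjusted p = 0.047), a call lost in 9 of the 12 fits without a library. Of 22 histone methyltransferase genes 0 were called by edgeR (1 by DESeq2, 1 at an unadjusted p under 0.05), and the histone methyltransferase NSD, which fell by 1.24 in HP and 1.33 in LP, had a line difference of -0.10 (SE 0.12, adjusted p = 0.66).

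Of 11 histone demethylase genes 2 were higher and 1 lower (27.3% called, against 16.6% of all genes). Kdm3 differed by 0.56 (adjusted p = 0.0038, with exons that overlap another gene on the same strand, as do those of Ilp8, Pxn and Kr-h1), Kdm2 by 0.34 (adjusted p = 0.015) and the corepressor CoRest by -0.27 (adjusted p = 0.021), a call lost in 4 of the 12 fits without a library. Kdm5 and Kdm4A, which fell in both lines, had values of -0.08 and 0.09 (adjusted p = 0.79 and 0.66). Bap111 and mor, subunits of the Brahma remodelling complex, were the 2 called of 24 Polycomb and Brahma group genes (8.33%), at -0.51 and -0.25, and the call of mor was lost in 7 fits without a library. Of 31 proteasome genes 0 were called by edgeR, 3 were lower by DESeq2 and 6 lower with total-count scaling, with 3 at an unadjusted p under 0.05.

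Several single genes tied to diapause or to day length did not pass, while eya, described above, did. The values were -0.34 for cpo, an RNA-binding protein linked to diapause in flies (adjusted p = 0.15), 0.53 for the clock gene tim (adjusted p = 0.1), 0.21 for foxo of insulin signalling (adjusted p = 0.18), 0.15 for its target Thor (adjusted p = 0.7) and 1.43 for Kr-h1, a juvenile hormone response gene (SE 0.63, adjusted p = 0.14). Of 15 clock genes 3 were higher and 0 lower (20% called, against 16.6% of all genes), and 1 was higher with total-count scaling. Clk fell in HP and rose in LP (1.28, SE 0.27, adjusted p = 0.0024), and the calls of Pdp1 (0.37) and cwo (0.40) were lost in 7 and 8 of the 12 fits without a library.

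**Figure D5:**
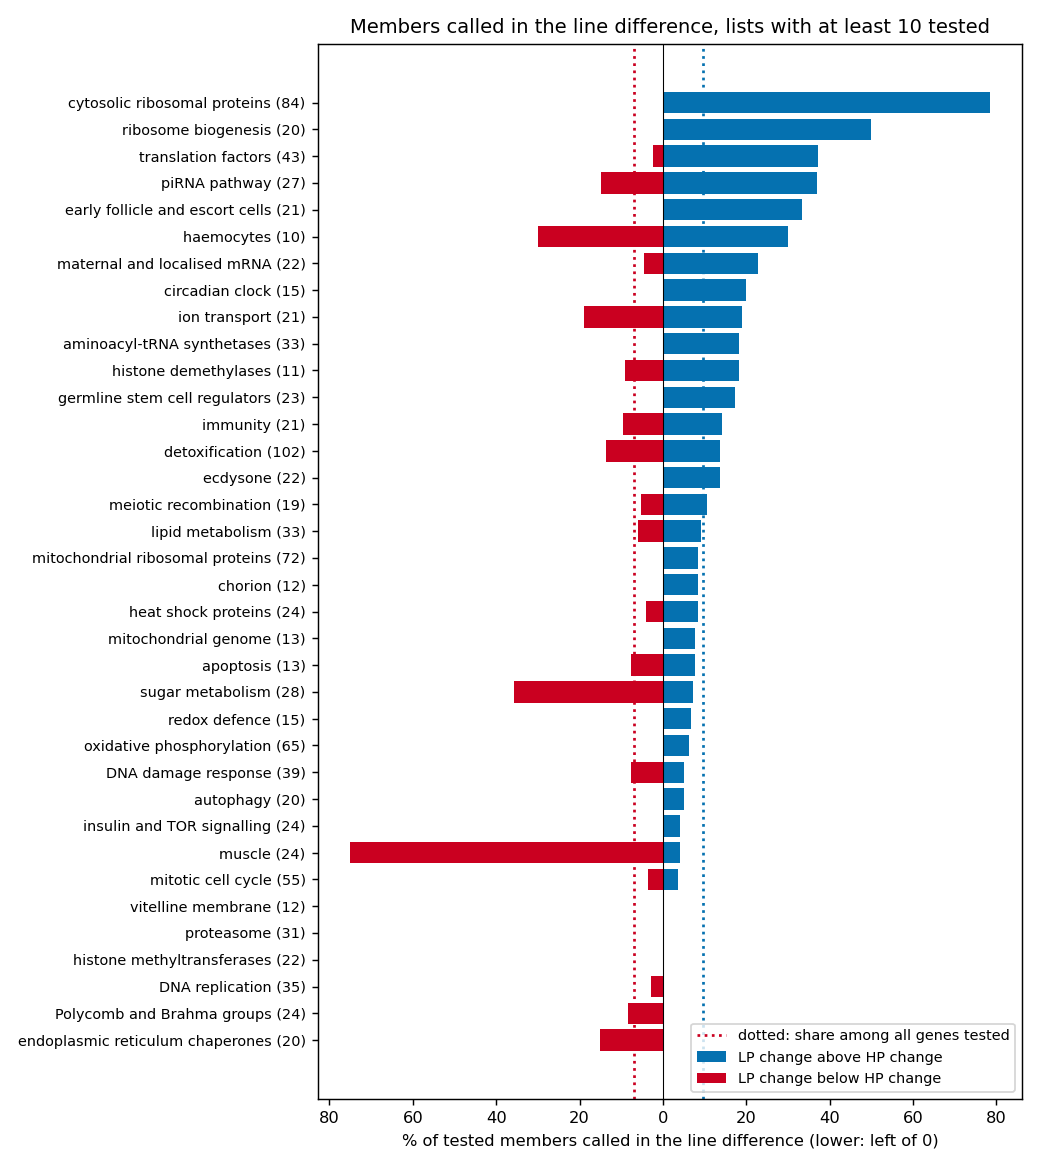
Percent of the tested members of each list (number in brackets) called higher (right) or lower (left) in the line difference, for lists with at least 10 tested members; dotted lines mark the 9.69% and 6.92% of all genes. Ribosomal proteins extend far to the right and muscle genes far to the left.

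The called genes lay on all major chromosome arms, with 15.3% to 17.5% of tested genes called on 2L, 2R, 3L, 3R and X and 22.7% (20 of 88) on chromosome 4.

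The diapause libraries, which the contrast does not use, gave a second look at the LP to HP difference in the cold. They do not check the line difference as defined above, and they were part of the same fit. In diapause 2947 genes differed between LP and HP (32.6%). Of the 774 genes called in the line difference that also differed between LP and HP at 12 °C in reproductive ovaries, 614 (79.3%) differed in diapause with the same sign and 0 with the opposite sign. Over all genes tested it was 2245 of 3174 (70.7%), with 2 of opposite sign. The 774 genes were selected on values of the contrast, so both shares are descriptions. They do not cover the 702 genes that differed at 25 °C alone. NKCC was at 35.2 ± 6.72 CPM in HP diapause and 5.04 ± 0.37 CPM in LP diapause (SD, n = 3), Tsf1 at 101 and 7.89 CPM, and Hesr at 1.38 and 11.02 CPM on average. Ribosomal protein mRNA took 19.4 to 21.0% of counts in HP diapause and 19.1 to 19.4% in LP diapause, and 3 genes were higher and 6 lower in LP.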

How the data were processed

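Poly-A RNA of ovaries was sequenced in 18 libraries made with a directional kit, described as biological replicates, per the labels. The authors deposited raw read counts per gene, not normalised and not pooled, per the file headers. Trimmomatic, STAR, featureCounts and DESeq2 are named in the submitters' processing notes without versions; settings, genome build and use of strand are not stated there or in the labels, so overlapping and near-identical genes are uncertain. Symbols came from Ensembl BDGP6.54 for 17556 of 17611 identifiers. Total counts were 14352846 to 21343992 per library, and intervals or limits from counts cover counting error only.

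Libraries were scaled by TMM, 9037 genes passed filterByExpr, and 1 mean per group was estimated over the 18 libraries by edgeR 4.0.16, with its robust quasi-likelihood test, under R 4.3.3, leaving 12 residual degrees of freedom. Genes were called at a Benjamini-Hochberg adjusted p under 0.05. The fit was tested on simulated counts. The comparison, the 45 gene lists and the named genes were chosen with earlier results of these data known, so that counts in lists are descriptions. Named genes were first ranked among called genes with a symbol and at least 5 CPM in the higher group of each line. From these came the 10 most positive, the 10 most negative and the 8 clearest opposite changes. Added were up to 6 genes with under 0.5 CPM in 1 line and up to 3 called members of each list. A short set of genes was fixed by name. Genes chosen after their values were seen are marked as such. Standard errors are the log2 difference over the root of F. Scaling, filter, tool (DESeq2 1.42.0, voom of limma 3.58.1), libraries in the fit, a replicate block, a fold threshold and leaving out each library were varied.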

Additional observations from a re-analysis of the deposited data

Results flagged for a closer look

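The change from 25 °C to 12 °C differed between the lines, by a test of the difference itself, at 1501 genes. At 169 of them each line changed by its own test and in opposite directions.

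Among those with a symbol and at least 5 CPM in each line's higher group, 8 stand out by the smaller of their line changes. Arc1 (-3.75), Vmat (-3.87), Drip (-2.49), NKCC (-2.31), SP1173 (-2.01) and pyx (-2.04) rose in HP and fell in LP, while Obp99a (2.80) and Hesr (3.75) fell in HP and rose in LP, all as log2 line differences. The HP age controls lay below the libraries of the other 3 groups in Arc1 and SP1173; in Vmat, Drip and pyx they had the lowest mean but overlapped the LP reproductive libraries. In NKCC and Hesr the lines differed at 12 °C while the values at 25 °C did not pass (adjusted p = 0.09 and 0.47, edgeR quasi-likelihood test). Summed muscle CPM was also lowest in the HP age controls, at 882 to 1066 against 1385 to 2154 in the other 3 groups, and its part in these results was not tested.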

How the results depend on the processing

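The number of genes with a line difference was 1198 to 1590 when each of the 12 libraries was left out in turn, 1728 with DESeq2 and 1281 to 1548 under the other scalings, filters and tools and in a fit to the 12 libraries alone. Of the 1501 genes, 979 (65.2%) were called in all 12 fits without a library, 1494 (99.5%) by DESeq2 and 1266 (84.3%) with total-count scaling, which moved the median of all genes from 0.03 to -0.04. Against a 1.5-fold difference 266 genes passed, 96 higher and 170 lower, with 1889 in HP, 2203 in LP, 525 between the lines at 12 °C, 803 at 25 °C and 22 of opposite direction; this threshold asks for more than any change.

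Values that turned sign passed the threshold in neither fit. Desat1 was at -0.019 with total counts. Over the fits without a library Thor ran from -0.066 (without the first HP age control) to 0.32, Kdm5 from -0.18 to 0.069 and NSD from -0.18 to 0.045, with 0.069 and 0.0017 without the second HP age control and 0.024 and 0.045 without the third LP age control. smp-30 ran from -0.75 (without the third LP reproductive library) to 1.31, and Hsp26 from -0.12 to 0.042, with 0.042, 0.032, 0.023 and 0.009 without the first HP reproductive, the third LP age-control, the first LP reproductive and the second LP reproductive library. The cause was not tested.

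Replicate numbers do not pair the samples: correlations of deviations ran from -0.18 to 0.17 for equal numbers and -0.28 to 0.24 for unequal ones. With the replicate number as a block 1520 genes were called, and 1517 with a block within each line, for which comparisons between lines were not run; 1435 (95.6%) of the 1501 were among the 1520. Genes near 1 CPM rest on few reads.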

Other observations

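Of 22 maternal and localised mRNA genes 5 were higher and 1 lower (27.3% called, against 16.6% of all genes), among them nclb (0.80, adjusted p = 0.00033, edgeR quasi-likelihood test), and the lower one was tral, an RNA granule protein at 2498 to 3179 CPM (-0.33, adjusted p = 0.0028). Of 22 ecdysone genes 3 were higher and 0 lower (13.6%), or 3 and 2 with total-count scaling, among them the early steps of steroid synthesis nvd (0.96, adjusted p = 0.0071) and sro (0.77, adjusted p = 0.027). The calls of sro and of Npc2a, the third gene, were lost in 7 and 5 of the 12 fits without a library. Of 20 chaperones of the endoplasmic reticulum 0 were higher and 3 lower (15%), or 5 lower with total-count scaling. Gp93 (-0.26, adjusted p = 0.009) was called in every fit without a library, while the calls of Hsc70-3 and Cnx99A were lost in 7 and 10 of the 12.

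Among 33 lipid genes 3 were higher and 2 lower (15.2%, against 16.6% of all genes), with the sterol regulator SREBP (0.38, adjusted p = 0.0078) on the higher side and the ethanolamine kinase eas (-0.58, adjusted p = 0.00014) on the lower. Of 39 genes of the DNA damage response 2 were higher and 3 lower (12.8%), or 1 and 5 with total-count scaling. Fancl was at -1.15 (adjusted p = 0.0003, edgeR quasi-likelihood test). Its exons overlap a non-coding RNA gene on the same strand and ohgt on the opposite strand. The nucleotide excision repair gene Xpc (-0.48, adjusted p = 2.7e-05) and the break repair gene mre11 (-0.40, adjusted p = 0.0037) rose in HP and not by the test in LP. The superoxide dismutase Sod3 was the 1 called of 15 redox genes (0.56, adjusted p = 0.00014), and the replacement histone His3.3B the 1 called of 6 histone variant genes (0.35, adjusted p = 0.001).

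The remaining lists had 1 or 2 calls. Of 13 apoptosis genes 1 was higher, Strica, and 1 lower, Debcl, whose call was lost in 6 of the 12 fits without a library. In each of the lists of 20 autophagy, 24 insulin and TOR, 6 juvenile hormone, 7 cuticle and 13 mitochondrial genome genes 1 was higher and 0 lower. These calls were lost in 6 fits for Atg18a, 2 for Lst8, 8 for gce, 8 for Cpr11A and 7 for mt:Cyt-b. With total-count scaling autophagy and cuticle each had 0 higher and 1 lower, insulin and TOR 0 and 2, and juvenile hormone 0 called. Of 8 genes of the chaperonin CCT 0 were called by edgeR or DESeq2, and 0 at an unadjusted p under 0.05.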
